A study of Oryctolagus cuniculus with 16 samples.

Results

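Osteoglycin (OGN), osteomodulin (OMD), lumican (LUM), decorin (DCN) and extracellular matrix protein 2 (ECM2) are 5 of the 13788 genes with a symbol in the RNA-seq counts from the intima and media of the rabbit basilar artery (BA) and basilar terminus (BT). The 5 genes were chosen by name after the differences between ligated and sham animals in these same libraries were known. Their values after ligation are therefore given as a description, with no p or q. The comparisons of media with intima and of BT with BA hold ligated and sham animals in equal number on both sides, and these were tested. The ligated values behind the choice of the genes also enter these comparisons, so the tests are not fully apart from that choice. All 5 genes passed the filter on low values in every comparison.

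Small leucine-rich proteoglycans (SLRPs) are secreted proteins built of leucine-rich repeats, most of which carry chondroitin, dermatan or keratan sulfate chains. They coat collagen fibrils, set their width and spacing, and bind growth factors such as TGF-β. Decorin carries a chondroitin or dermatan sulfate chain, lumican and osteomodulin are keratan sulfate members that bind collagen, and osteoglycin, also called mimecan, is a member long known from the arterial wall. ECM2 is a matrix protein with leucine-rich repeats like those of the SLRPs. In arteries these proteins are mainly products of fibroblasts and smooth muscle cells.

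The genes fall into 2 runs of neighbours. In the RefSeq gene order of the rabbit assembly mOryCun1.1, ECM2, asporin (ASPN), OMD and OGN follow each other, and all lie within the span of CENPP, a centromere protein gene. Epiphycan (EPYC), keratocan (KERA), LUM and DCN follow each other in the other run. CENPP itself had no counts in 6 of the 16 libraries and at most 7.65 CPM. The counts were made on another build, OryCun2.0, so no coordinates are given.

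The tissue came from 4 female New Zealand white rabbits, 24 h after surgery. Rabbits 3 and 4 had sham surgery and normal flow, and in rabbits 5 and 6 both common carotid arteries were ligated, which raises flow through the BA. Their age is not given in the sources used here. The intima, cut by laser as thin strips of endothelium with some smooth muscle, and the remaining media were collected from the straight BA and from the wall beside the apex of the bifurcation, the BT, so that each of 8 groups held 2 libraries, 1 per rabbit. The intimal libraries held 5211886 to 17686105 counts on genes with a symbol and the medial ones 2154863 to 11219236. Levels are given as CPM, a gene's counts as a share of its library scaled by TMM. They are not divided by gene length, so levels are compared between libraries and not between genes. A count of 0 allows up to 3 counts for counting error alone, which is between 0.169 and 1.58 CPM in these libraries.

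The marker genes of the layers followed the labels in part. The summed level of 8 endothelial markers ranged from 1210 to 5792 CPM in the intima and from 440 to 1569 CPM in the media. The 6 smooth muscle markers in the file summed to 11437 to 76940 CPM in the intima and to 70487 to 120774 CPM in the media. Of these 6, ACTA2, smooth muscle actin, had the most counts in every library. The BT intima of sham rabbit 3 stood apart from the other intimal libraries. Its leptomeningeal markers summed to 1846 CPM, against 301 to 552 CPM in the other 7 intimal libraries, and the organic anion transporters SLC22A6 and SLC22A8 stood at 265 and 253 CPM there. Of this list, TBX18 and BMP6 had means of 146 and 150 CPM over the BA intima and 140 and 176 CPM over the BT intima. In the BT intima of rabbit 3 the macrophage markers summed to 1092 CPM. The BA intima of the same rabbit had 497 CPM and the other 6 intimal libraries 66.8 to 203 CPM. Values without rabbit 3 are therefore given beside the members' ligation results in the intima.

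**Figure D1:**
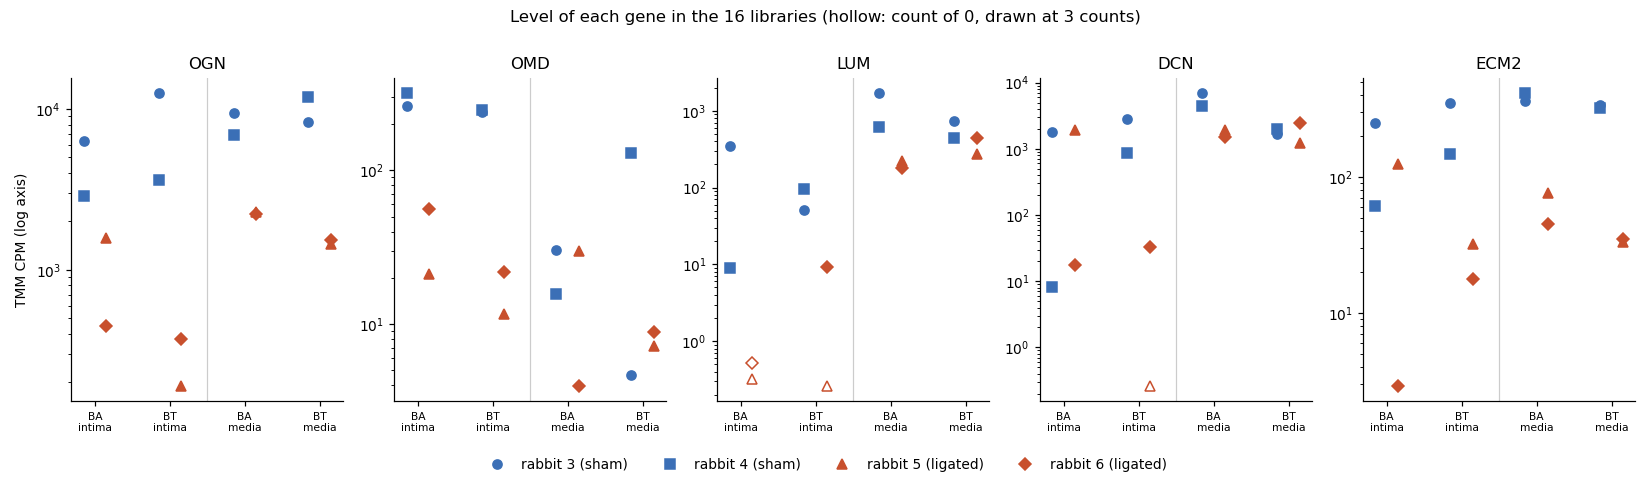
Level of OGN, OMD, LUM, DCN and ECM2 in each of the 16 libraries, in CPM on a log axis, for the intima (left of the grey line) and media (right) of the BA and BT. Circles and squares are the sham rabbits 3 and 4, triangles and diamonds the ligated rabbits 5 and 6, and hollow symbols are counts of 0 drawn at 3 counts. For OGN both ligated libraries lie below both sham libraries in all 4 tissues.

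OGN was lower in both ligated rabbits than in both sham rabbits in every tissue. OGN stood in the BA media at 9449 and 6878 CPM in sham rabbits 3 and 4 and at 2282 and 2235 CPM in ligated rabbits 5 and 6. The BT media had OGN at 8323 and 11799.9 CPM in the sham and at 1449 and 1525 CPM in the ligated rabbits. In both medial tissues the 2 ligated rabbits were close to each other and well below the lower sham rabbit. In the BA intima the sham values were 6332 and 2884 CPM and the ligated values 1573 and 451 CPM. In the BT intima the sham values were 12599 and 3612 CPM and the ligated values 189 and 371 CPM. The groups did not overlap in the intima either, but the highest sham value of the gene was in the BT intima of rabbit 3, the library that stood apart. The ligated mean was 3.61-fold lower in the BA media and 6.77-fold in the BT media, and in the intima 4.55-fold in the BA and 28.9-fold in the BT. On the log2 scale the fitted differences were -1.84 ± 0.25 (SE), -2.75 ± 0.31, -2.19 ± 0.71 and -4.86 ± 0.82 in the same order. Without rabbit 3 the intimal differences were -1.48 in the BA and -3.69 in the BT. In bulk tissue, fewer cells of a type and less RNA per cell cannot be told apart.

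ECM2, from the same run of genes as OGN, was lower in both ligated than in both sham rabbits in the media of both locations. The BA media held 363 and 417 CPM in the sham and 76.5 and 45.3 CPM in the ligated rabbits. The BT media held 339.9 and 321 CPM in the sham and 33.7 and 35.1 CPM in the ligated rabbits. The medial groups lay far apart at both locations, by 6.40-fold of the means in the BA and 9.62-fold in the BT. In the BA intima the values were 248 and 61.0 CPM in the sham and 124 and 2.91 CPM in the ligated rabbits, and here the groups overlapped. In the BT intima they were 350.4 and 148 CPM against 32.3 and 17.8 CPM, with no overlap. The fitted log2 differences were -2.67 ± 0.39 (SE) and -3.25 ± 0.36 in the BA and BT media and -1.28 ± 1.25 and -3.31 ± 0.63 in the BA and BT intima. The BA intimal difference ranged from -5.75 to 0.10 when 1 rabbit was left out, with 0.10 without rabbit 3, and the BT intimal one was then -2.54.

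OMD differed from the other members in that its level was mostly higher in the intima. In the BA intima it stood at 264 and 319.9 CPM in the sham and at 21.2 and 56.3 CPM in the ligated rabbits. In the BT intima it stood at 239 and 247 CPM in the sham and at 11.7 and 21.9 CPM in the ligated rabbits. The 2 sham rabbits were close to each other at both locations, and all 4 ligated intimal libraries were far below them. The highest macrophage and leptomeningeal sums of the sham intima were in rabbit 3, and their part in the OMD level was not tested. In the media the level was low. The BA media had 30.3 and 15.7 CPM in the sham and 30.1 and 3.93 CPM in the ligated rabbits, and the BT media had 4.65 and 129 CPM against 7.17 and 8.88 CPM. The medial groups overlapped at both locations. The fitted log2 differences of the intima were -2.92 ± 0.58 (SE) for the BA and -3.86 ± 0.51 for the BT, and -3.03 and -3.88 without rabbit 3. In the BA media the difference was -0.45 ± 0.96 and in the BT media -3.05 ± 1.05. The BT medial value rested on sham rabbit 4 and was 0.80 without it. The BA medial value ranged from -2.53 to 0.38 when 1 rabbit was left out, and was 0.11 without rabbit 3.

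LUM had counts in every medial library and was low or at 0 in most intimal ones. The BA media held 1711 and 610.1 CPM of LUM in the sham and 223 and 178 CPM in the ligated rabbits, without overlap. The BT media stood at 747 and 439 CPM against 274 and 446 CPM, and the groups overlapped. In the intima no ligated library except that of the BT of rabbit 6, at 9.14 CPM, had a count of LUM. The sham intima had 352 and 9.04 CPM in the BA and 50.7 and 96.6 CPM in the BT. Taking 3 counts in each ligated library of the BA intima, the ligated mean there was at least 433-fold lower than the sham mean, a mean carried by rabbit 3. Against sham rabbit 4 alone it was at least 21.7-fold lower. In the BT intima the ligated mean was 16.1-fold lower than the sham mean, ligated rabbit 6 alone 8.06-fold lower and rabbit 5, with no count, at least 284-fold lower. These bounds cover counting error only. The paper lists the lowest RNA concentrations of the intima for the BA and BT of rabbit 5. The fitted log2 differences were -2.53 ± 0.49 (SE) in the BA media, -0.71 ± 0.36 in the BT media and -4.02 ± 1.72 in the BT intima. The BT intimal difference was -4.41 without rabbit 3, and the medial ones were then -1.58 in the BA and -0.28 in the BT.

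DCN, the member best known for binding TGF-β, gave no common direction across the tissues. In the BA media it stood at 6989 and 4376 CPM in the sham and at 1918 and 1515 CPM in the ligated rabbits. In the BT media it stood at 1648 and 2012 CPM in the sham and at 1229 and 2427 CPM in the ligated rabbits. The groups thus lay apart in the BA media. They overlapped in that of the BT, where the fitted log2 difference was 0.01 ± 0.35 (SE) against -1.72 ± 0.30 in the BA. In the BA intima the 2 libraries of each group lay further apart than the group means. The BA intima had 1824 and 8.15 CPM in the sham and 1939.8 and 17.5 CPM in the ligated rabbits, and the BT intima had 2832 and 861 CPM in the sham and 0 counts and 32.4 CPM in the ligated rabbits. The fitted log2 difference was 0.09 ± 1.91 in the BA intima. It ranged there from -5.74 to 6.94 when 1 rabbit was left out, with 6.94 without rabbit 3. In the BT intima the difference was -6.85 ± 2.18, and -5.74 without rabbit 3.

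**Figure D2:**
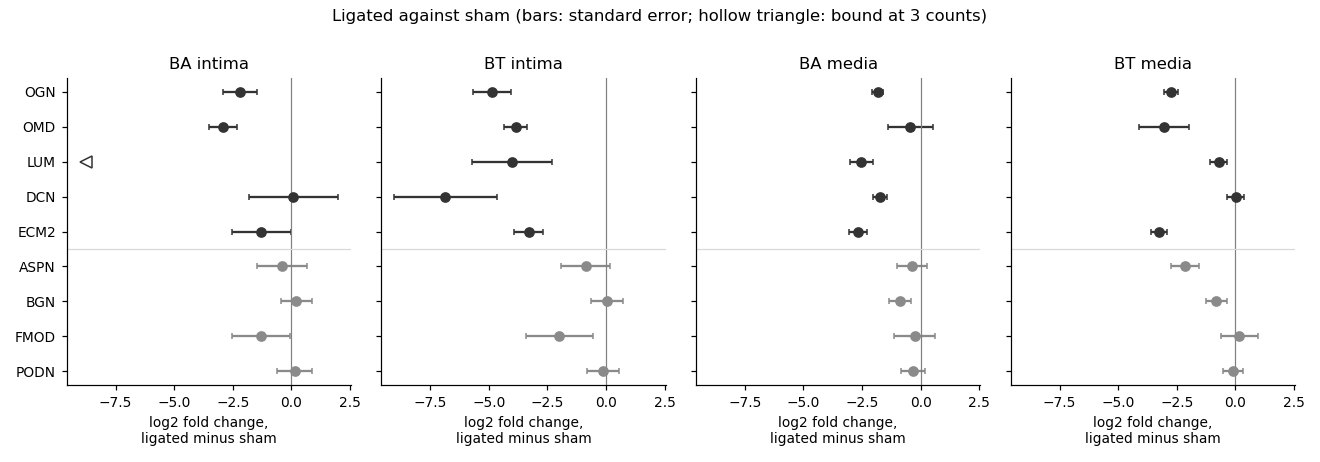
Fitted log2 fold change of ligated against sham libraries (2 against 2) for the 5 members (black) and for ASPN, BGN, FMOD and PODN (grey), with 1 panel for each layer and location. Bars are standard errors and the hollow triangle is the bound of LUM at 3 counts per library. OGN and ECM2 lie between -1.84 and -3.25 in the media at both locations, while the medial values of DCN are -1.72 (BA) and 0.01 (BT).

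Counted over the members, both ligated libraries were below both sham libraries for 3 of 5 genes in the BA intima, where 20.0% of all genes tested had this order, and for 5 of 5 in the BT intima, where 25.6% had it. In the media it was 4 of 5 in the BA, against 26.0% of all genes tested, and 2 of 5 in the BT, against 23.1%. Over all genes, 0.807% of 8800 passed the q-value threshold of 0.05 in the BA media (edgeR quasi-likelihood test, Benjamini-Hochberg adjustment) and 2.35% of 8783 in the BT media. With any 1 rabbit left out, no gene passed in the BA media. Such fits hold 2 libraries against 1, whose spread is taken from the 2. No gene of any kind passed in the BA or BT intima (0% of 8974 and 9273 genes), where 534 and 1079 genes had an unadjusted p below 0.05 and DESeq2 called 122 and 613. In the media the members had a median log2 difference of -1.84 (BA) and -2.75 (BT), against -0.15 and 0.03 for all genes tested. Since the members were chosen on this contrast, these counts describe the choice and are not evidence for it.

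The 4 other SLRP genes with counts in every library were ASPN, biglycan (BGN), the closest relative of decorin, fibromodulin (FMOD) and podocan (PODN). Of the 12 other family genes listed, 10 were in the file and 7 passed the filter in each ligation comparison, and none of the 7 passed the q-value threshold in any of the 4. ASPN, the gene between ECM2 and OMD, stood at 130 and 40.6 CPM in the sham and 15.6 and 22.4 CPM in the ligated BT media. Its log2 difference there was -2.14 ± 0.60 (SE, edgeR q = 0.0934), and in the BA media, where the values were 69.0 and 22.4 against 29.0 and 41.9 CPM, it was -0.35 ± 0.64. BGN had 60.7 and 124 CPM in the sham and 50.6 and 48.2 CPM in the ligated BA media, a log2 difference of -0.88 ± 0.48 that did not pass (edgeR q = 0.464). Its BT medial groups overlapped, with a difference of -0.81 ± 0.46 (edgeR q = 0.423). FMOD was below both sham libraries in both ligated libraries of the intima, at 14.8 and 13.9 against 0.852 and 10.95 CPM in the BA and 6.83 and 12.2 against 0.605 and 4.1996 CPM in the BT. Its log2 differences were -1.30 ± 1.25 and -1.99 ± 1.42 there (SE, edgeR q = 0.929 and 0.597), and -0.26 ± 0.87 and 0.18 ± 0.79 in the BA and BT media, where the groups overlapped. PODN differed by -0.33 ± 0.50 and -0.09 ± 0.42 in the BA and BT media. PRELP, NYX and TSKU had at most 6.15 CPM, KERA and EPYC had counts in 3 libraries and 1 library, with at most 4 counts and 1 count, and OPTC had none.

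The comparison of media with intima asked in which layer the members are expressed. Each rabbit gave a pair of layers at each location, so there were 8 pairs, and in the test rabbit was a block. LUM was higher in the media in all 8 pairs, with a lowest ratio of 4.55 and, in the 3 pairs whose intima had no count, ratios of at least 347 to 1056 against 3 counts. OGN was higher in the media in 7 of 8 pairs, by up to 7.66-fold, and the exception was the BT of sham rabbit 3 with a ratio of 0.661. DCN was higher in the media in 6 pairs, and its ratios ran from 0.582 to 537 in the pairs with a count in both layers. ECM2 was higher in the media in 6 pairs, with a median ratio of 1.72. OMD was lower in the media in 7 of 8 pairs, by up to 51.4-fold in the BT of sham rabbit 3, and the exception was the BA of ligated rabbit 5 with a ratio of 1.42.

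**Figure D3:**
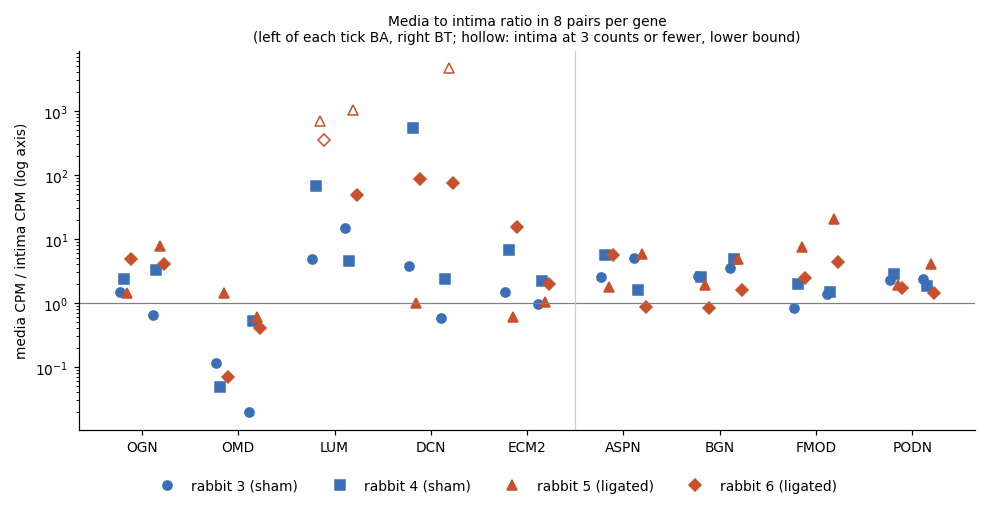
Ratio of the medial to the intimal level, on a log axis, in the 8 pairs of layers from the same rabbit and location, for the 5 members and for ASPN, BGN, FMOD and PODN. Pairs left of each tick are BA and right of it BT, symbols are rabbits, and hollow symbols are lower bounds where the intima had no count. LUM is above 1 in 8 of 8 pairs and OMD below 1 in 7 of 8.

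None of the 5 members passed the q-value threshold between the layers at either location (edgeR, where 0.499% of 9016 genes passed in the BA and 1.86% of 9125 in the BT). In the BA the log2 differences, media minus intima, were 6.49 ± 1.37 (SE, edgeR q = 0.0960) for LUM, 4.22 ± 1.67 (q = 0.358) for DCN, 1.57 ± 0.72 (q = 0.433) for ECM2, 1.15 ± 0.32 (q = 0.182) for OGN and -2.88 ± 0.79 (q = 0.182) for OMD. In the BT they were 4.94 ± 1.26 (edgeR q = 0.104) for LUM, 3.89 ± 2.40 (q = 0.529) for DCN, 0.52 ± 0.29 (q = 0.483) for ECM2, 1.58 ± 0.56 (q = 0.233) for OGN and -1.86 ± 0.80 (q = 0.343) for OMD. At both locations LUM and DCN thus lay farthest to the media, and OMD was the 1 member that lay to the intima. At an unadjusted p below 0.05, 4 of 5 members passed in the BA and 3 of 5 in the BT, against 12.4% and 14.4% of all genes tested. The members had a median difference of 1.57 (BA) and 1.58 (BT), against -0.05 and -0.08 over all genes tested. The direction was the same in all 4 rabbits for LUM and OGN in the BA and for LUM and OMD in the BT, which 22.4% and 25.9% of all genes tested shared.

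The call depended on the test. With DESeq2, OGN, OMD, LUM and DCN passed in the BA, where 7.50% of all genes did, and OGN and LUM in the BT, where 11.2% did. With every gene that had a count in the fit, edgeR passed LUM at both locations, where 1.35% and 2.64% of genes passed. Without rabbit 3, LUM passed in the BA (edgeR q = 0.0473), where 0.268% of genes did, and OGN in the BT (edgeR q = 0.0146), where 2.28% did. Without rabbit 5, OMD passed in the BA (edgeR q = 0.0148), where 0.706% of genes did.

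Of the 7 other SLRP genes tested between the layers, 6 had a positive difference at each location, and the exception was TSKU, a gene with at most 4.23 CPM. ASPN and BGN were higher in the media in 7 of 8 pairs each, FMOD in 7 and PODN in 8. None passed the threshold. BGN in the BT came nearest, with a log2 difference of 1.76 ± 0.35 (SE, edgeR q = 0.0516), and its pairs ran from 1.62-fold to 4.87-fold there. The summed level of the 10 family genes was 41.2 to 132 CPM in the intima and 126 to 358 CPM in the media.

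Ligated and sham rabbits did not differ in the sign of these layer ratios for LUM, which was higher in the media in 4 of 4 pairs of each. LUM ratios were 4.55 to 67.5 in the sham pairs and 48.8 or more in the ligated pairs, where 3 of 4 are lower bounds, so the ranges overlapped. The mean log2 ratio of LUM was 3.61 in the sham pairs and, with the bounds, 8.38 in the ligated pairs. Its fitted layer differences thus draw more on the ligated pairs. OMD ratios were 0.0195 to 0.522 in the sham and 0.0698 to 1.42 in the ligated pairs, and ECM2 ratios 0.970 to 6.83 and 0.615 to 15.6, which overlapped as well. Whether the ratios differ with ligation was not tested, because the members were chosen on that contrast.

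The comparison of BT with BA asked whether the members differ between the bifurcation and the straight vessel of the same rabbit. No member passed the threshold in the intima or the media (edgeR, where 0.0110% of 9131 genes and 0.0227% of 8829 genes passed). In the intima OMD was lower in the BT in 4 of 4 rabbits, by 1.10-fold to 2.57-fold, with a log2 difference of -0.68 ± 0.26 (SE, edgeR q = 0.9996) and of -0.86 without rabbit 3. The other 4 members went up in some rabbits and down in others in the intima, and 11.9% of all genes tested had the same direction in all 4. In the media ECM2 was lower in the BT in 4 of 4 rabbits, by 1.07-fold to 2.27-fold (log2 difference -0.50 ± 0.25, edgeR q = 0.956), which 14.0% of all genes shared. DCN was lower in the BT media in 3 of 4 rabbits, by up to 4.24-fold, with a log2 difference of -0.81 ± 0.34 (edgeR q = 0.895). At an unadjusted p below 0.05, OMD passed in the intima and DCN in the media, each 1 of 5, against 3.83% and 5.28% of all genes tested. DESeq2 called none of the 5 (0.394% and 0.634% of all genes), and with every gene that had a count in the fit, edgeR called DCN in the media (q = 0.0498), where 0.642% of genes passed.

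**Figure D4:**
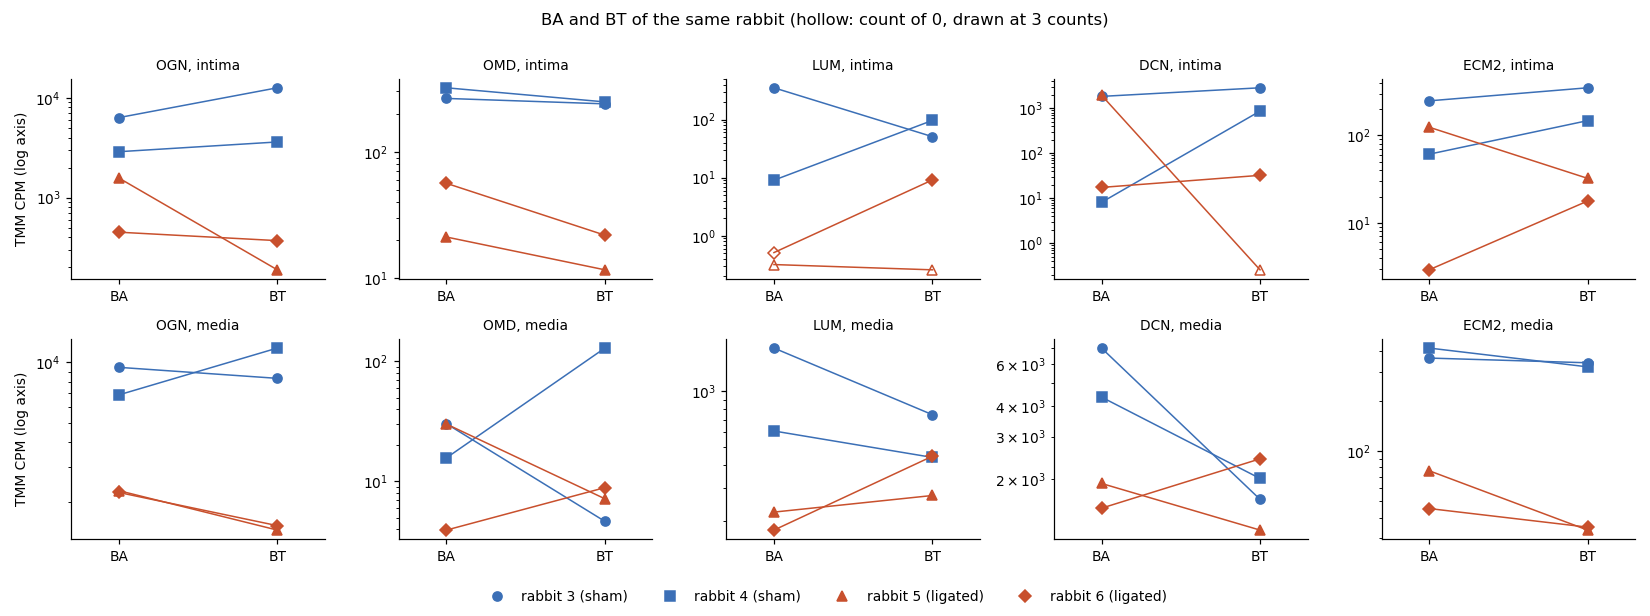
Level of each member in the BA and BT of the same rabbit, in CPM on a log axis, in the intima (top) and the media (bottom). Lines join the libraries of 1 rabbit, and hollow symbols are counts of 0 drawn at 3 counts. OMD is lower in the BT than in the BA intima of all 4 rabbits, by 1.10-fold to 2.57-fold, and ECM2 in the media of all 4, by 1.07-fold to 2.27-fold.

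The difference between the layers did not itself differ detectably between the BT and the BA for any member. The layer by location term passed for 0 of 5 members and 0% of 9510 genes (edgeR). At an unadjusted p below 0.05 it passed for 0 of 5 members and 3.52% of all genes, and DESeq2 called 1.06%.

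The members varied in different ways across the 16 libraries. Over log2 levels, OGN and ECM2 had a Pearson r of 0.87, OGN and DCN 0.76, and DCN and LUM 0.75, while OMD had -0.10 with LUM and -0.07 with DCN. These are descriptions over 16 libraries that share 4 rabbits, and the layer and the ligation both enter them. The genes most like LUM were MATN2 (r = 0.98), SVEP1 (0.94) and PLXDC1 (0.93), and those most like DCN were CP (0.98), APOD (0.97) and CYP1B1 (0.97). OGN was most like SMARCA1 (0.94), LPAR1 (0.93) and HIPK1 (0.93), ECM2 most like ADAMTSL3 (0.92), APLF (0.92) and XPC (0.91), and OMD most like SELENOP (0.92), TDRP (0.91) and ABAT (0.88). CP, which encodes ceruloplasmin, stood in the BA intima at 732 and 2.62 CPM in the sham and 2261 and 3.25 CPM in the ligated rabbits, in the same order as DCN. In the BT media it did not follow DCN, with 492 and 437 CPM in the sham and 1146 and 993 CPM in the ligated rabbits. SELENOP, which encodes a secreted selenium carrier, stood at 810 and 970.2 CPM in the sham BA intima and at 133 and 371 CPM in the ligated BA intima, against 76.3 to 151 CPM in the BA media.

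PDGFRA, a receptor that marks fibroblasts, varied widely among the intimal libraries, as DCN and LUM did. It stood at 57.4 and 0 CPM in the sham and 8.95 and 0.171 CPM in the ligated BA intima, and at 70.3 and 51.1 CPM in the sham and 0 and 4.12 CPM in the ligated BT intima. The intimal libraries with under 1 CPM of PDGFRA were those of the BA of rabbits 4 and 6 and of the BT of rabbit 5, and in these DCN was at 8.15, 17.5 and 0 CPM, and LUM at 9.04, 0 and 0 CPM. The list of fibroblast markers followed PDGFRA in the intima in part. Its 6 markers other than collagens, PDGFRA among them, had their highest sums in the libraries with the most PDGFRA. These sums were 241 and 148 CPM in the BT and BA of rabbit 3 and 114 CPM in the BT of rabbit 4. Below these the sum did not keep the order of PDGFRA. It was 20.3 and 31.3 CPM in the BA of rabbits 4 and 6 and 74.4 CPM in the BT of rabbit 5. The BA of rabbit 5, where DCN was at 1939.8 CPM, had 37.4 CPM, and the BT of rabbit 6 had 16.1 CPM. OMD did not share the pattern of PDGFRA, with 319.9 CPM in the BA intima of rabbit 4, where PDGFRA had no count. In the media PDGFRA ranged from 37.0 to 163 CPM, and all 8 libraries had DCN and LUM. Rabbit 5 was an exception in the BA intima, with 8.95 CPM of PDGFRA and no count of LUM. The fitted log2 difference of PDGFRA after ligation in the BA intima was -2.64 ± 2.18 (SE, edgeR q = 0.891), and that of DCN 0.09. Of the 8 fibroblast markers tested there, 3 had a positive and 5 a negative difference. In the BT intima 7 of 8 had a negative difference, with a median of -2.56, against -0.13 over all genes tested, and none passed (edgeR). The 6 markers other than collagens summed there to 241 and 114 CPM in the sham and 74.4 and 16.1 CPM in the ligated rabbits, without overlap. Of the 9 fibroblast markers in the file, COL3A1 had the most counts in every library. The 9 markers summed to 1140 to 5727 CPM in the intima and 3256 to 14683 CPM in the media. In the media their sum was 10987 to 14683 CPM in the sham and 3256 to 5780 CPM in the ligated rabbits, groups that did not overlap. Most of this sum was collagen, COL3A1 foremost. In the media the same 6 markers summed to 357 and 318 CPM in the sham and 165 and 121 CPM in the ligated BA media, and to 222 and 300.01 CPM against 140.2 and 168 CPM in the BT media. Of the markers tested, 7 of 8 had a negative difference in the BA media and 6 of 9 in the BT media. The part of fibroblast number in the members' differences was not tested.

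**Figure D5:**
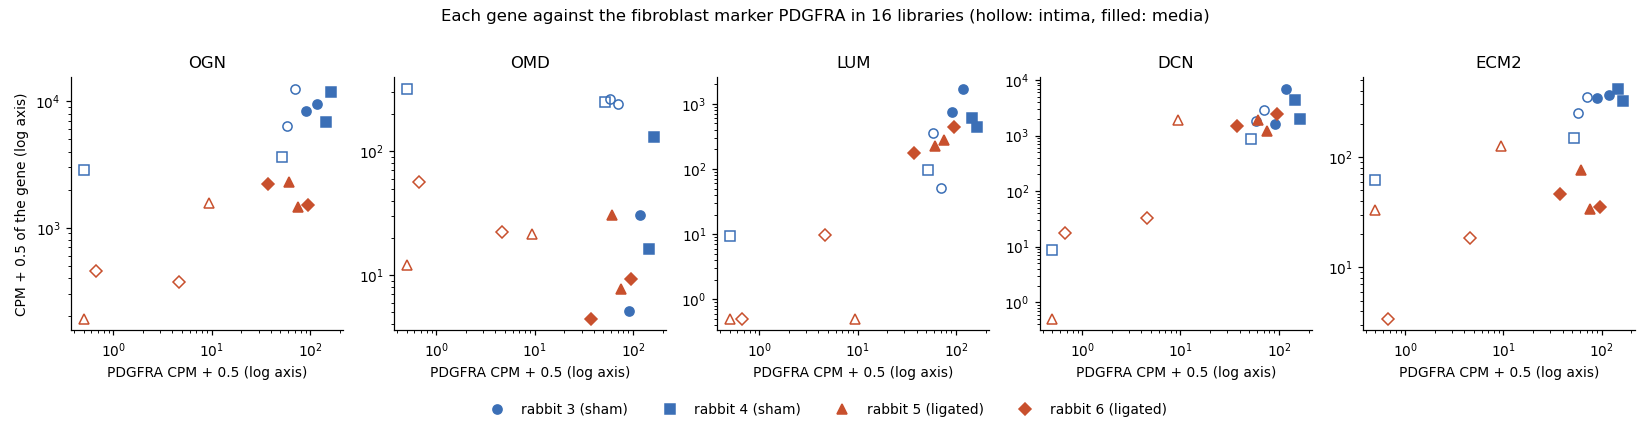
Level of each member against the fibroblast marker PDGFRA in the 16 libraries, as CPM + 0.5 on log axes. Hollow symbols are intima and filled symbols media, and the shapes are rabbits. LUM and DCN are at most 17.5 CPM in the 3 intimal libraries with under 1 CPM of PDGFRA. The list of fibroblast markers follows PDGFRA in the intima only in part. OMD stands at 319.9 CPM in the BA intima of rabbit 4.

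The macrophage markers summed to 326 and 244 CPM in the sham and 160.3 and 60.3 CPM in the ligated BA media. Of the 7 tested there, 2 had a positive and 5 a negative difference. In the BT media the sum was higher in the ligated rabbits, at 92.1 and 67.3 CPM in the sham against 105 and 167 CPM, and 6 of 7 had a positive difference. The leptomeningeal sum was 1117 and 870.2 CPM in the ligated and 535 and 645 CPM in the sham BA media. Its genes went both ways there, 5 positive and 5 negative, and without ALDH1A2 the sums were 558 and 465 CPM in the ligated and 430.3 and 574 CPM in the sham rabbits, which overlapped. Most of the sum without ALDH1A2 was TBX18 and BMP6, at means of 269 and 195 CPM over the BA media. The whole sum also overlapped in the BT media, at 634 and 763 against 380.3 and 850.2 CPM. Of the genes tested in the BT intima, all 10 leptomeningeal and 6 of 8 macrophage markers had a negative difference after ligation. None of these passed (edgeR), and 5 and 6 of the markers had an unadjusted p below 0.05, as did 11.6% of all genes tested. There the macrophage markers AIF1 and TYROBP stood at 337 and 289.6 CPM in sham rabbit 3 and at 6.15 and 34.0 CPM in sham rabbit 4. In the ligated rabbits they stood at 1.32 CPM or less. OGN stood there at 12599 and 3612 CPM in sham rabbits 3 and 4 and at 189 and 371 CPM in the ligated rabbits. In the BA intima of sham rabbit 4, where OGN was at 2884 CPM, the macrophage sum was 77.1 CPM, of which CD14 made up 70.2 and TYROBP 4.26 CPM, while AIF1 had no count. Of the leptomeningeal list, 10 of 15 genes were in the file and 1, the retinoic acid enzyme ALDH1A2, passed after ligation, in the BA media, where it rose by 2.47 ± 0.37 on the log2 scale (SE, edgeR q = 0.0311). With 1 rabbit left out, when no gene passed there, its difference was 2.21 to 2.80. No macrophage or endothelial marker passed after ligation in any tissue, and of the smooth muscle markers MYH11 fell by 1.70 ± 0.33 (SE, edgeR q = 0.0221) and LMOD1 by 1.51 ± 0.34 (edgeR q = 0.0438) in the BT media. The list went both ways there, with 2 of 6 positive, and DES, desmin, had a difference of 1.05 ± 0.41 (edgeR q = 0.229). MYH11 and LMOD1 did not pass without rabbit 5 (edgeR q = 0.151 and 0.0938) or rabbit 6 (edgeR q = 0.0939 and 0.360). Brain parenchyma markers summed to at most 13.0 CPM in any library, and none passed. Between the BT and the BA, and for the layer by location term, no gene of any list passed (edgeR). The part of these cell types in the members' differences was not tested.

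Of the collagens, the fibrils to which SLRPs bind, COL3A1 fell in the BA and BT media of ligated rabbits and COL1A2 in the BA media. Of the 18 fibrillar collagens and fibril partners listed, 13 were in the file and tested in each medial comparison. COL3A1, the chain of type III collagen, was at 6859 and 8196 CPM in the sham and at 1898 and 2712 CPM in the ligated BA media, and fell by 1.69 ± 0.26 on the log2 scale (SE, edgeR q = 0.0366). In the BT media it was at 8354 and 10576 CPM against 3424 and 3494 CPM and fell by 1.44 ± 0.29 (edgeR q = 0.0253). COL1A2, a chain of type I collagen, fell by 1.495 ± 0.26 in the BA media (edgeR q = 0.0481), and its difference of -0.73 ± 0.29 in the BT media did not pass (edgeR q = 0.232). These were the 2 of 13 genes that passed in the BA media and the 1 of 13 in the BT media, all lower. With 1 rabbit left out, when no gene passed in the BA media, the differences there were -1.99 to -1.46 for COL3A1 and -1.73 to -1.31 for COL1A2. In the BT media COL3A1 did not pass without rabbit 5 (edgeR q = 0.148) or rabbit 6 (edgeR q = 0.218). The list had a median of -0.14 (BA media) and 0.16 (BT media), against -0.15 and 0.03 over all genes tested. COL3A1 and COL1A2 also belong to the fibroblast list, where they were the 2 of 8 genes tested that passed in the BA media, and COL3A1 the 1 of 9 in the BT media. None of the 12 genes tested passed in the BA or the BT intima.

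Between the layers the collagen list lay to the media. In the BT 5 of 13 genes passed, all higher in the media, among them COL3A1 by 2.10 ± 0.26 (SE, edgeR q = 0.0201), COL5A2 by 1.62 ± 0.26 (edgeR q = 0.0313) and COL1A2 by 1.81 ± 0.30 (edgeR q = 0.0330). In the BA none passed, though 12 of 13 had a positive difference, with a median of 1.34. The smooth muscle markers had the same direction, with 4 of 6 higher in the BT media, DES by 2.79 ± 0.42 (SE, edgeR q = 0.0267) and LMOD1 by 2.10 ± 0.34 (edgeR q = 0.0313) among them. Of the endothelial markers, CLDN5 fell by 4.68 ± 0.48 (SE, edgeR q = 0.0140) and VWF by 3.51 ± 0.59 (edgeR q = 0.0484) from intima to media in the BA, and 3 of 8 passed in the BT, with TEK lower by -3.38 ± 0.30 (edgeR q = 0.0103). Most macrophage markers had a positive difference, 6 of 7 in the BA and 5 of 7 in the BT, and the 1 that passed, CD14, was lower in the BT media, by -2.80 ± 0.49 (SE, edgeR q = 0.0379). Without rabbit 4, 5 or 6 no gene passed between the layers of the BT, and in the BA none passed without rabbit 4.

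Of the genes that build the sulfate chains of SLRPs, none passed in any ligation, layer or location comparison. Of 28 chain enzymes listed, 22 were in the file, and 16 to 19 of them were tested in a comparison. CSGALNACT2, which starts the chondroitin chain, had the most counts of the 22 genes in 15 of 16 libraries. It stood at 83.3 to 125 CPM in the intima, except for 162 CPM in the BT intima of rabbit 5. In the media it stood at 94.5 to 288 CPM. The summed level of the 22 genes was 292 to 417 CPM in the intima and 440.1 to 581 CPM in the media. After ligation, 9 of 18 had a positive difference in the BA intima, 12 of 18 in the BT intima, 8 of 16 in the BA media and 14 of 17 in the BT media. The BT medial median was 1.27, against 0.03 over all genes tested, and 1 of the 17 genes had an unadjusted p below 0.05.

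Among the ligands and receptors that SLRPs bind, 15 of 16 genes were in the file, and none passed after ligation in any tissue. TGFB2, one of the growth factors bound by decorin, was higher in the BT media than in the BT intima by 1.601 ± 0.28 (SE, edgeR q = 0.0376), as the 1 of 15 genes tested that passed there, and not without rabbit 4, 5 or 6 (edgeR q between 0.0818 and 0.169). TGFB3 was at 766 and 1286 CPM in the sham and at 504 and 392 CPM in the ligated BT media. TLR2 and TLR4, receptors for SLRP fragments, had at most 6.63 and 39.2 CPM in any library.

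Of the proteases that cut or process SLRPs, 11 of 14 were in the file and 1 passed. ADAMTS4, an aggrecanase, rose by 3.10 ± 0.54 on the log2 scale after ligation in the BT media (SE, edgeR q = 0.0130, 1 of 8 tested), from 88.6 and 24.0 CPM in the sham to 602 and 350.6 CPM in the ligated rabbits. With 1 rabbit left out the difference was 2.44 to 4.31. In the BA media it was at 55.1 and 16.8 CPM in the sham and 145 and 91.7 CPM in the ligated rabbits, without overlap but not past the threshold (edgeR q = 0.275). ADAMTS1, the gene of the list with the most counts in 15 of 16 libraries, did not pass in any tissue. Its log2 differences were 0.93 ± 0.47 (SE, edgeR q = 0.861) and 1.31 ± 0.71 (edgeR q = 0.5003) in the BA and BT intima. They were 0.75 ± 0.48 (edgeR q = 0.533) and 0.69 ± 0.34 (edgeR q = 0.357) in the BA and BT media.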

How the data were processed

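RNA from laser-microdissected strips was amplified with SMART-Seq v4 and sequenced as single reads from Nextera libraries. The authors used STAR on OryCun2.0, retained reads with 1 match, and assigned them to Ensembl exons by featureCounts 1.6.2 under a strand-specific setting. The SMART-Seq v4 and Nextera protocol does not mark strand, and what this setting did to the counts, also of ECM2, OMD and OGN within the span of CENPP, was not tested. They deposited unnormalized counts by symbol. An entry that carries no symbol, 13.8% to 18.7% of each library, was left out, and the 22 symbols turned into dates were not mapped.

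The 5 members, the 11 gene lists and the tests were chosen with earlier results of these data known. Genes outside the members are named as other SLRP genes that passed the filter, as the 3 genes most like each member (Pearson r of log2(CPM + 0.5) over 16 libraries, among 8697 genes with a mean of at least 1 CPM), as up to 2 genes in each direction with the smallest q of each list, and as markers where a list's values are given. TGFB3, TLR2, TLR4, CSGALNACT2, ADAMTS1 and the counts of CP and SELENOP were chosen after their values were seen. Of 144 listed genes, 116 were in the file.

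Tests were made across all genes with edgeR 4.0.16 in R 4.3.3: TMM scaling, the legacy quasi-likelihood F test and Benjamini-Hochberg adjustment, for genes with a mean above 1 CPM in at least 1 group. Ligated and sham libraries were compared in 4 separate fits, 2 against 2, as in the study, and could not be paired. Layers and locations were compared over 4 pairs with rabbit as a block, since the labels give the rabbit of each library. Deviations of paired libraries correlated at -0.03 to 0.39. The layer by location term was fitted over 16 libraries. Alternatives were RLE scaling, library size alone, all genes with a count, DESeq2 1.42.0, no rabbit block, and leaving out each rabbit. Replicates of a group differed by more than counting error (chi-square per degree of freedom 22.5 to 456). For a count of 0 the 95% limit of 3 counts was used, which covers counting error only. The scripts were tested on simulated data.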

Additional observations from a re-analysis of the deposited data

Results flagged for a closer look

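In 3 results every sham rabbit moved one way and every ligated rabbit the other between the BT and the BA. LUM in the media was lower in the BT than in the BA in both sham rabbits, by a mean log2 ratio of -0.84 ± 0.51 (SD, n = 2), and higher in both ligated rabbits, by 0.81 ± 0.73, so that the means differed by 1.65. ASPN in the media went the other way, at 0.89 ± 0.04 in the sham and -0.90 ± 0.0041 in the ligated rabbits, a difference of -1.79. OGN in the intima was higher in the BT in both sham rabbits, by 0.66 ± 0.47, and lower in both ligated rabbits, by -1.67 ± 1.96 with BT to BA ratios of 0.120 and 0.823, a difference of -2.33. None of these differences was tested, and each rests on 2 rabbits against 2. These and the BGN result below came from a search of the members, ASPN, BGN, FMOD and PODN in both layers. The share of all genes with such a pattern was not computed. The members were chosen on the ligation contrast that splits the rabbits here.

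BGN was lower in the BT than in the BA in the intima of all 4 rabbits, by a mean log2 ratio of -0.18, and higher in the BT in the media of all 4, by 0.73, a difference of -0.91. Taken the other way, as media minus intima, the layer by location term of BGN was 0.89 ± 0.45 (SE). It did not pass (edgeR quasi-likelihood test, Benjamini-Hochberg q = 1).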

How the results depend on the processing

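The numbers of genes past the q-value threshold changed with the test, and the cause was not tested. With all genes that had a count, ligated and sham intima differed at 123 (BA) and 346 (BT) genes, and media at 507 (BA) and 557 (BT), layers at 151 genes in the BA and 304 in the BT, and locations at 71 in the media. DESeq2 called 122, 613, 508 and 594 genes for ligation, 676 and 1020 between layers, 36 and 56 between locations in intima and media, and 101 for the layer by location term. With library size alone, 78 genes passed between the layers of the BA, where the median of all genes moved from -0.05 to -0.24, and 1 between locations in the media. Without the rabbit block, 0 genes passed between the layers of the BA or the BT and 0 between locations in either layer. With 1 rabbit left out, the counts were 0 to 126 (BA intima), 0 to 116 (BT intima), 0 in all 4 cases (BA media) and 38 to 645 (BT media) for ligation, 0 to 64 and 0 to 204 between layers in the BA and BT, 0 to 1 and 0 to 4 between locations in intima and media, and 0 to 1 for the layer by location term. Sham and ligated libraries come from different rabbits, so no paired fit of ligation was possible. Members that changed sign for ligation were DCN in the BA intima (-5.74 to 6.94 with 1 rabbit left out, -0.90 without rabbit 4), ECM2 there (-5.75 to 0.10), OMD in the BA media (-2.53 to 0.38, and 0.11 without rabbit 3) and in the BT media (-3.99 to 0.80), and DCN in the BT media (-0.57 to 0.41, and -0.13 without rabbit 3; -0.0153 with RLE scaling and -0.0161 with DESeq2). Between locations in the intima, the values without the rabbit block were 0.58 for OGN, -1.21 for LUM and -0.0322 for DCN, and those with 1 rabbit left out were -0.92 to 0.35 for OGN and -0.87 to 2.22 for DCN. Between locations in the media, the values without the block were 0.14 for OGN and 0.91 for OMD, and with 1 rabbit left out -0.47 to 0.0065 for OGN, -1.31 to 0.85 for OMD (0.71 without rabbit 5) and -0.47 to 0.37 for LUM (0.14 without rabbit 4). No member changed direction between the layers under any alternative run. With 2 libraries a group and medial libraries as shallow as 2154863 counts, differences in low genes such as OMD in the media are the least precise.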
